A study of Homo sapiens with 17 samples.

Results

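Described here are 48 genes of the lysosome and of autophagy in IMR90 ER:RAS cells. They were chosen by name, with earlier results of these data known, from the 62754 genes counted in each library. They comprise 10 proteases, 11 glycosidases, 6 lipid and thioester hydrolases or their helpers, 3 sulfatases, 6 membrane proteins, 5 proton pump subunits, 2 transcription factors and 5 autophagy genes, with GLB1 included because it encodes the senescence-associated β-galactosidase. IMR90 is a human lung fibroblast line, and all cells carried a retroviral ER:RAS fusion (labelled RASG12V) that 4-hydroxytamoxifen (4OHT) switches on, which drives oncogene-induced senescence. Poly(A) RNA was sequenced from 17 libraries in 3 groups: DMSO siNT (vehicle and a non-targeting siRNA, n = 5), 4OHT siNT (senescent cells with the non-targeting siRNA, n = 6) and 4OHT siSMARCA4 (senescent cells with an siRNA against SMARCA4, n = 6). Cells were reverse transfected a day before 4OHT or DMSO, and RNA was taken 7 days after. SMARCA4, also called BRG1, is an ATPase subunit of the SWI/SNF chromatin remodelling complexes. Every library is also marked with an siRNA number, 2 or 4, and with a tag that ends in V or VM, neither of which the labels explain. All 6 4OHT siNT libraries are VM, as are 3 of the 5 DMSO siNT and 3 of the 6 4OHT siSMARCA4 libraries. There was no group with DMSO and the SMARCA4 siRNA, so the effect of the siRNA was measured in 4OHT-treated cells alone. The labels do not say whether libraries of a group came from separate cultures, so the p-values measure the spread between these libraries, which may be technical.

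The lysosome is the acidic compartment in which cells digest proteins, glycans and lipids. A vacuolar proton pump acidifies its lumen, soluble hydrolases work there at low pH, and glycoproteins such as LAMP1 and LAMP2 line its membrane, where transporters such as NPC1 move products out. Autophagy delivers cytoplasm to it, starting with the ULK1 kinase, extending a membrane that carries LC3 and GABARAP family proteins, and using receptors such as SQSTM1 (p62) to pick cargo. The transcription factors TFEB and TFE3 bind E-box elements in the promoters of many of these genes. Senescent cells are known for an enlarged lysosomal compartment, which is what the β-galactosidase stain detects.

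Libraries held 39109479 to 68978119 assigned counts, and 46 of the 48 genes had at least 100 counts in every library. The lowest count was 33, for CTSS in a DMSO siNT library. SMARCA4 itself, measured first as a check of the labels, was lower in all 6 4OHT siSMARCA4 libraries (68.4 to 127 CPM, counts scaled to the library total) than in all 6 4OHT siNT libraries (253 to 286 CPM), a log2 fold change of -1.61 (SE 0.13, adjusted p = 5.1e-07). Markers of arrest moved with 4OHT: CDKN2B rose by 4.01 and MKI67 fell by 5.68 on the log2 scale. With the SMARCA4 siRNA the arrest genes CDKN1A (-0.42), CDKN2A (-0.66) and CDKN2B (-0.66) were lower in every library and called lower, while MKI67, LMNB1 and CCNB1 were not called. The summed level of 8 fibroblast markers was 22851 to 27447 CPM in DMSO siNT, 13354 to 17455 in 4OHT siNT and 7496 to 10778 in 4OHT siSMARCA4, and 7 of the 8 were called lower in each comparison. All 8 macrophage and leukocyte markers stayed under 1 CPM in every library, with summed levels of 0.401 to 0.867, 0.900 to 1.19 and 0.523 to 0.878 CPM in the same order, and of the 2 that could be tested 1 was called higher with 4OHT. Summed levels of 5 epithelial markers were 4.45 to 9.63, 2.22 to 3.09 and 0.765 to 2.40 CPM, with CDH1, KRT5 and KRT14 under 1 CPM throughout and both tested markers lower in each comparison. Those of 5 endothelial markers were 3.44 to 10.8, 9.62 to 14.1 and 6.78 to 10.4 CPM, with CDH5 and KDR under 1 CPM throughout, 3 of 4 tested called higher with 4OHT and 1 of 4 lower with the SMARCA4 siRNA. The part these marker shifts play in the results below was not tested. In bulk RNA, fewer cells of a kind and less RNA per cell cannot be told apart.

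Promoters of 4 of the genes are shown because TFEB and TFE3 recognise the E-box CACGTG, which reads the same on both strands. Each is the RefSeq sequence (GRCh38.p14) from 250 bases before to 50 bases after the start of the gene's MANE Select transcript (the reference transcript that RefSeq and GENCODE share), 5′ to 3′ on the gene's own strand, with every CACGTG in capitals. MCOLN1 lies at chr19:7522374-7522673 (plus strand), CTSA at chr20:45891085-45891384 (plus), NEU1 at chr6:31862772-31863071 (minus) and LAMP1 at chr13:113296989-113297288 (plus).
MCOLN1: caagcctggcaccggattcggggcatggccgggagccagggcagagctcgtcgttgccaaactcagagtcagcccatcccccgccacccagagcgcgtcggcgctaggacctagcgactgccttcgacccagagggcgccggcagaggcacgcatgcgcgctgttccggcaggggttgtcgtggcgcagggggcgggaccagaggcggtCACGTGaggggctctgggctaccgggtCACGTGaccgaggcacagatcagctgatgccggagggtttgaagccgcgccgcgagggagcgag
CTSA: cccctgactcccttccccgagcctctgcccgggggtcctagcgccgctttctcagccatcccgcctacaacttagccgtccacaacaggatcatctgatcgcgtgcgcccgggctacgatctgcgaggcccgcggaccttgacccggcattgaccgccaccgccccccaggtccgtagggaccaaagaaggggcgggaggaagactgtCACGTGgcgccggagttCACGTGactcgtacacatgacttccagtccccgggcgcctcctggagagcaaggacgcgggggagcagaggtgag
NEU1: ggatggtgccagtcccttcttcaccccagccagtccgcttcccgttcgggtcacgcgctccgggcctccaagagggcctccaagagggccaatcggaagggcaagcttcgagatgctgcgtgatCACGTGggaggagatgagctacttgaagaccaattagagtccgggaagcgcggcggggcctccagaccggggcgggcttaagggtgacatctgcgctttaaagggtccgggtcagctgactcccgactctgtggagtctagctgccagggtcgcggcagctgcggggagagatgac
LAMP1: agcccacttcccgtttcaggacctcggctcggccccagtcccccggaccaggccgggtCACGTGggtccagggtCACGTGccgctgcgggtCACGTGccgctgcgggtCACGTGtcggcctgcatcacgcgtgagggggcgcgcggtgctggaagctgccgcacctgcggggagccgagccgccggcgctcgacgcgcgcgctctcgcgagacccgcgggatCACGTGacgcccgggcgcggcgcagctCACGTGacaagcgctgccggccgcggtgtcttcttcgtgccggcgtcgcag
MCOLN1 and CTSA hold the element 2 times each, NEU1 holds it 1 time and LAMP1 holds it 6 times. A window at that start was found for 34 of the 48 genes (not for GLB1, CTSS, CTSK, ASAH1, ATP6V1A, ARSA, MANBA, SGSH, HEXA, CTSB, NAGLU, LAMP2, ATP6V1H and PSAP). Of these 34, 10 (29.4%) held CACGTG, namely ATP6V0D1, CD63, CLN3, CTSA, CTSD, CTSF, GAA, LAMP1, MCOLN1 and NEU1, against 17 of 86 (19.8%) in the wider list of other lysosome and autophagy genes and 8.94% of the 14473 genes with such a window. The longer palindrome TCACGTGA, which contains it, stood in 6 of the 34 (17.6%), against 8 of 86 (9.30%) and 1.55% of all windows. A motif of another kind, the AP-1 element TGANTCA, searched on both strands, stood in 4 of the 34 (11.8%), against 6 of 86 (6.98%) and 5.36%. These are matches of letters and say nothing of binding in these cells.

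The first comparison asked how the genes changed when 4OHT switched RAS on. Of the 48 genes, 8 of the 10 proteases, 6 of the 11 glycosidases, all 5 proton pump subunits and 4 of the 5 autophagy genes rose, while FUCA1, CTSF, LIPA, SMPD1, CLN3, SGSH and GABARAPL1 fell. In 4OHT siNT against DMSO siNT, 30 of the 48 genes were called higher and 7 lower, where called means an adjusted p under 0.05 in edgeR's quasi-likelihood test over all 19473 genes tested. Over all genes tested, 27.0% were called higher and 27.4% lower. In 26 of the 48 every 4OHT siNT library was above every DMSO siNT library and in 5 every library was below, against 19.6% and 20.0% of all genes. The median log2 fold change was 0.41 over the 48 genes and 0.00 over all genes tested.

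**Figure D1:**
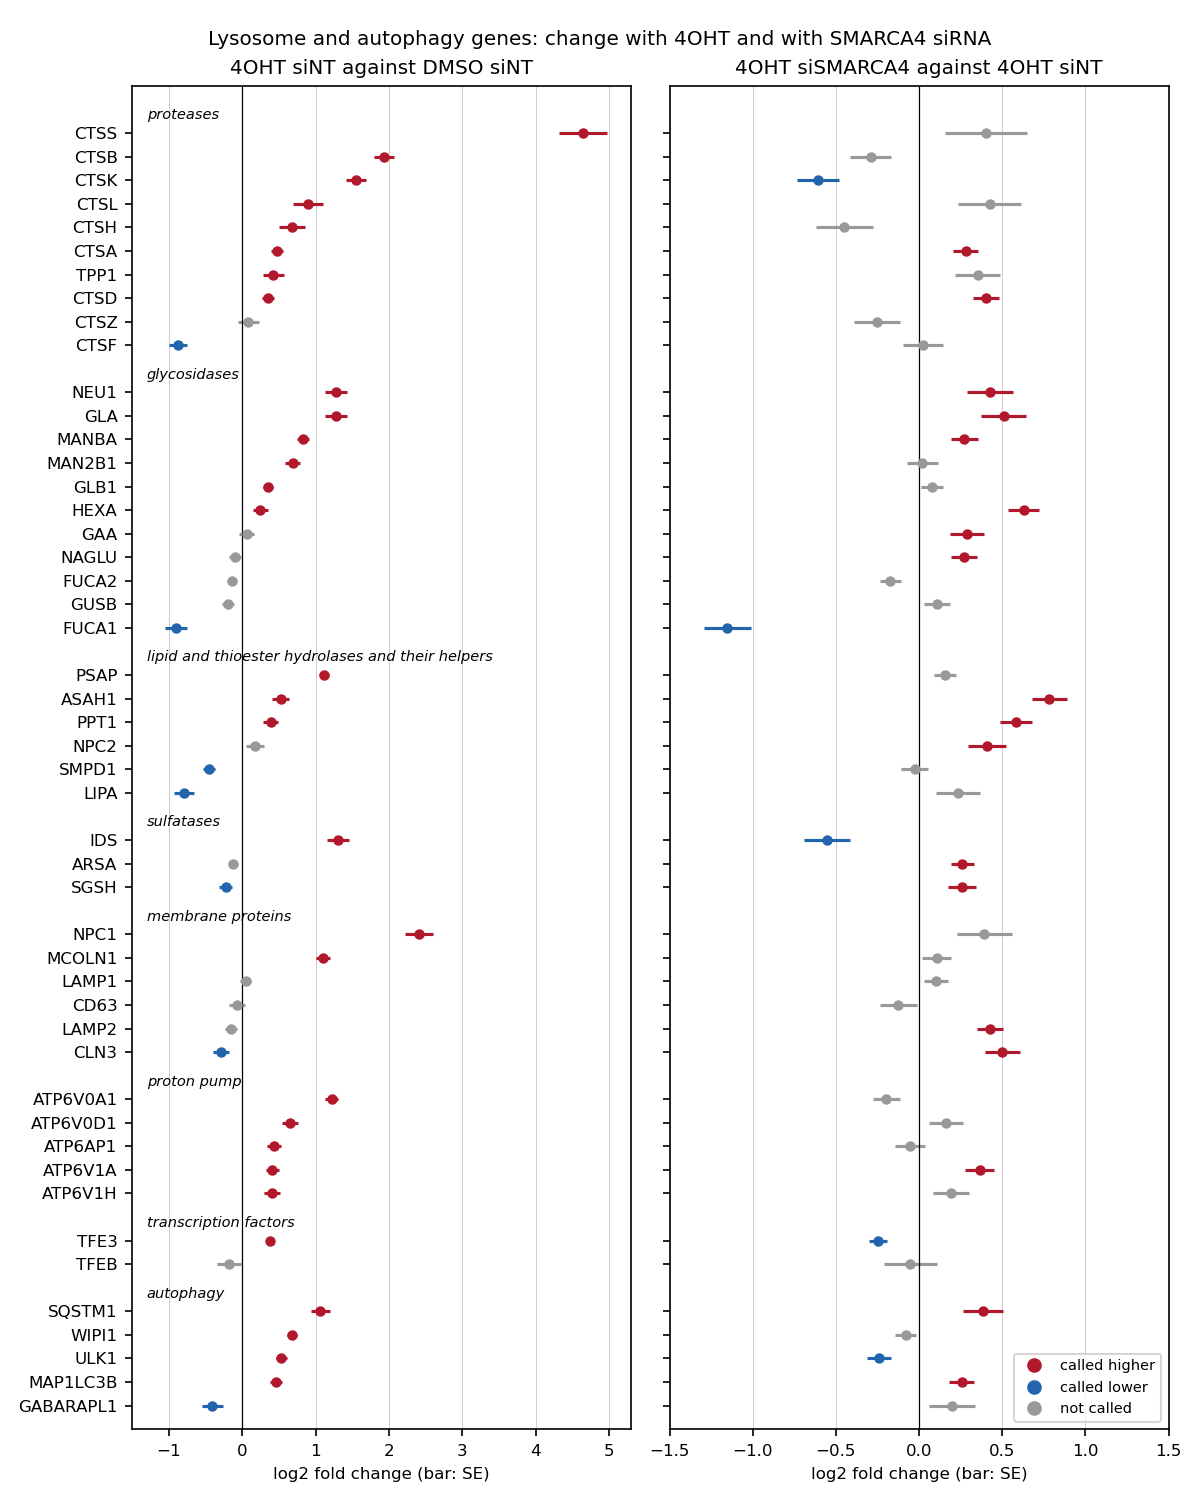
Log2 fold change (x axis, with its SE as a bar) of each of the 48 genes, grouped by role, for 4OHT siNT against DMSO siNT (left) and 4OHT siSMARCA4 against 4OHT siNT (right). The axes differ in scale: the left panel reaches 4.64 for CTSS, while the right panel runs from -1.15 for FUCA1 to 0.78 for ASAH1.

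Among the 10 proteases, 8 rose and CTSF fell. CTSS encodes cathepsin S (ENSG00000163131, GRCh38 chr1:150730079-150765957), a cysteine protease best known from antigen presentation. Its level was 2.86, 1.87, 0.572, 1.26 and 0.814 CPM in the DMSO siNT libraries 2-1V, 2-2V, 2-2VM, 4-2VM and 4-3VM, the order used for every gene below. In 4OHT siNT it was 28.4 at the lowest, 36.8 at the median and 42.3 CPM at the highest. No library of either group came near the other, and the fitted rise was 4.64 on the log2 scale (SE 0.33, adjusted p = 8.6e-10), or 24.9-fold. CTSB, cathepsin B, stood at 1214, 987, 914, 1171 and 1276 CPM in DMSO siNT and at 3574, 4220 and 5109 CPM (lowest, median and highest) in 4OHT siNT. Its rise of 1.93 (SE 0.13, adjusted p = 7.4e-10) was 3.82-fold. The 3 4OHT siNT libraries of siRNA number 4 lay above the 3 of number 2. CTSK, cathepsin K, a collagen-degrading enzyme (GRCh38 chr1:150794880-150809577), was at 42.8, 29.4, 21.6, 29.2 and 26.0 CPM in DMSO siNT and at 74.0, 89.0 and 102 CPM in 4OHT siNT, without overlap (log2 fold change 1.55, SE 0.14, adjusted p = 2.4e-08). Of the other proteases, cathepsin L (CTSL, 0.89), cathepsin H (CTSH, 0.68), protective protein cathepsin A (CTSA, 0.47), tripeptidyl peptidase TPP1 (0.42) and cathepsin D (CTSD, 0.35) rose by these log2 fold changes (TPP1 was at 0.033, adjusted p = 0.84, in libraries of siRNA number 2 alone), while the carboxypeptidase cathepsin Z (CTSZ) was at 105 ± 15.4 and 111 ± 4.91 CPM (SD, n = 5 and 6) and was not called. CTSF, cathepsin F, went the other way. It was at 29.5, 24.6, 28.1, 23.5 and 28.8 CPM in DMSO siNT and at 12.3, 15.1 and 16.6 CPM in 4OHT siNT, and it fell by 0.87 (SE 0.13, adjusted p = 8.8e-06).

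The glycosidases trim sugar chains, and 6 of the 11 rose. GLB1, the β-galactosidase of the senescence stain (ENSG00000170266, chr3:32996609-33097202, minus strand), was at 84.4, 73.1, 79.1, 86.6 and 83.4 CPM in DMSO siNT. In 4OHT siNT it was at 99.4, 103 and 108 CPM, above every DMSO siNT library. The step was small beside that of other members: 0.35 on the log2 scale (SE 0.07, adjusted p = 0.00031), a 1.27-fold rise, and it was not called in libraries of siRNA number 4 alone (0.27, adjusted p = 0.083). The largest rises among the 11 glycosidases were those of the sialidase NEU1 (72.3 ± 11.5 to 176 ± 9.39 CPM, SD, log2 fold change 1.28) and of α-galactosidase A, GLA (31.1 ± 4.45 to 75.3 ± 4.49 CPM, SD, 1.28). The mannosidases MANBA (0.83) and MAN2B1 (0.69) rose as well, and the hexosaminidase subunit HEXA rose by 0.25 (adjusted p = 0.041), a call that 16 of 22 alternatives did not give, RLE factors (adjusted p = 0.056), DESeq2 (0.050) and V or VM as a covariate (0.17) among them. Acid α-glucosidase GAA, which degrades glycogen, NAGLU, an enzyme of heparan sulfate breakdown, the β-glucuronidase GUSB and the second fucosidase FUCA2 were not called, with log2 fold changes between -0.19 and 0.06. The lysosomal α-fucosidase FUCA1 (chr1:23845077-23868290) fell, from 7.72, 7.52, 13.4, 9.53 and 10.4 CPM in DMSO siNT to 4.03, 5.10 and 6.10 CPM in 4OHT siNT. The groups did not overlap, and the log2 fold change was -0.90 (SE 0.14, adjusted p = 2.9e-05).

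Genes of lipid breakdown split in both directions. PSAP, the precursor of the saposins that present sphingolipids to their hydrolases, rose from 1091 ± 114 to 2354 ± 52.0 CPM (SD, log2 fold change 1.11, adjusted p = 2.3e-10). The acid ceramidase ASAH1 (0.52) and the palmitoyl thioesterase PPT1 (0.39) rose, and the cholesterol carrier NPC2 was at 0.17 and not called. The acid lipase LIPA, which hydrolyses cholesteryl esters, was at 70.8, 62.3, 53.7, 56.6 and 50.9 CPM in DMSO siNT and at 26.2, 35.0 and 39.8 CPM in 4OHT siNT, and it fell by 0.79 (SE 0.14, adjusted p = 7.2e-05). The acid sphingomyelinase SMPD1 was at 188, 171, 208, 194 and 230 CPM against 133, 141 and 164 CPM, and it fell by 0.45 (SE 0.09, adjusted p = 0.00019). For each of these falls every 4OHT siNT library lay below every DMSO siNT library.

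NPC1, the membrane protein that exports cholesterol from the lysosome (chr18:23506184-23586506), had the second largest rise of the 48 genes. It was at 12.7, 13.0, 31.0, 24.5 and 19.8 CPM in DMSO siNT and at 98.9, 108 and 118 CPM in 4OHT siNT, a log2 fold change of 2.41 (SE 0.19, adjusted p = 3.9e-09). The calcium channel MCOLN1 rose from 32.5 ± 2.16 to 69.8 ± 1.71 CPM (SD, 1.10). The abundant membrane glycoproteins LAMP1 (492 ± 40.9 and 507 ± 12.9 CPM, SD), LAMP2 (202 ± 18.8 and 182 ± 16.8 CPM, SD) and CD63 (1106 ± 212 and 1053 ± 54.4 CPM, SD) were not called. CLN3, a membrane protein mutated in a childhood neuronal storage disease, was at 13.6, 12.7, 12.9, 13.8 and 14.7 CPM against 10.5, 11.1 and 11.8 CPM, and it fell by 0.29 (SE 0.11, adjusted p = 0.030). Among the sulfatases, IDS, the iduronate sulfatase (chrX:149476988-149521096), was at 58.6, 60.1, 83.7, 60.4 and 52.3 CPM in DMSO siNT and at 149, 154 and 172 CPM in 4OHT siNT. Its rise was 1.31 (SE 0.15, adjusted p = 5.1e-07). SGSH, which removes sulfate from heparan sulfate, fell by 0.23 (adjusted p = 0.036) with overlapping libraries, and arylsulfatase A (ARSA), which acts on sulfatide, was at -0.13 and not called.

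All 5 proton pump subunits rose, by 1.22 for ATP6V0A1, 0.65 for ATP6V0D1, 0.44 for the accessory subunit ATP6AP1, 0.41 for ATP6V1A and 0.40 for ATP6V1H. ATP6V1H was not called in VM libraries alone (0.30, adjusted p = 0.076) and was at 0.013 in libraries of siRNA number 4 alone (adjusted p = 0.95), where ATP6V0D1 (0.42, 0.0899), ATP6AP1 (0.28, 0.11) and ATP6V1A (0.20, 0.29) were not called either. The 2 transcription factors differed. TFE3 was at 149, 147, 162, 149 and 144 CPM in DMSO siNT and at 188, 193 and 208 CPM in 4OHT siNT, a rise of 0.38 (SE 0.06, adjusted p = 1.0e-05) without overlap. TFEB was at 4.17, 4.80, 5.59, 5.44 and 6.44 CPM against 3.78, 4.64 and 5.96 CPM, with overlapping groups, and its log2 fold change of -0.18 (SE 0.17, adjusted p = 0.38) was not called. Among autophagy genes, the cargo receptor SQSTM1 rose from 750 ± 132 to 1568 ± 193 CPM (SD, 1.06), and the phosphoinositide-binding protein WIPI1 (0.68), the kinase ULK1 (0.53) and the LC3 gene MAP1LC3B (0.46) rose. GABARAPL1 fell by 0.41 (adjusted p = 0.022) with overlapping libraries. It was at -0.11 (adjusted p = 0.58) in libraries of siRNA number 4 alone and at -0.30 (0.074) in VM libraries alone.

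Of the 37 calls in this comparison, 21 held under all alternatives tried. Leaving out 1 library ended the calls of HEXA (9 of 11 libraries, adjusted p 0.050 to 0.17), SGSH (6 of 11, 0.051 to 0.084), CLN3 (4 of 11, 0.051 to 0.066) and GABARAPL1 (without DMSO siNT 2-1V, 0.053), and with the libraries of siRNA number 4 alone (2 DMSO siNT, 3 4OHT siNT) 18 genes were called higher, where 20.1% of all genes were. The 4OHT calls lost there include CTSL (0.77, adjusted p = 0.11), CTSH (0.49, 0.16), CTSD (0.28, 0.17), ASAH1 (0.35, 0.11), PPT1 (0.28, 0.26) and MAP1LC3B (0.20, 0.28). Of the genes not called with 4OHT, DESeq2 called FUCA2 (-0.16, adjusted p = 0.042) and GUSB (-0.20, 0.031) lower, RLE factors GUSB (-0.20, 0.042), and VM libraries alone TFEB (-0.35, 0.044). Libraries of number 2 alone gave a lower call for GUSB (-0.35, adjusted p = 0.0077) and those of number 4 alone for FUCA2 (-0.33, 0.049).

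**Figure D2:**
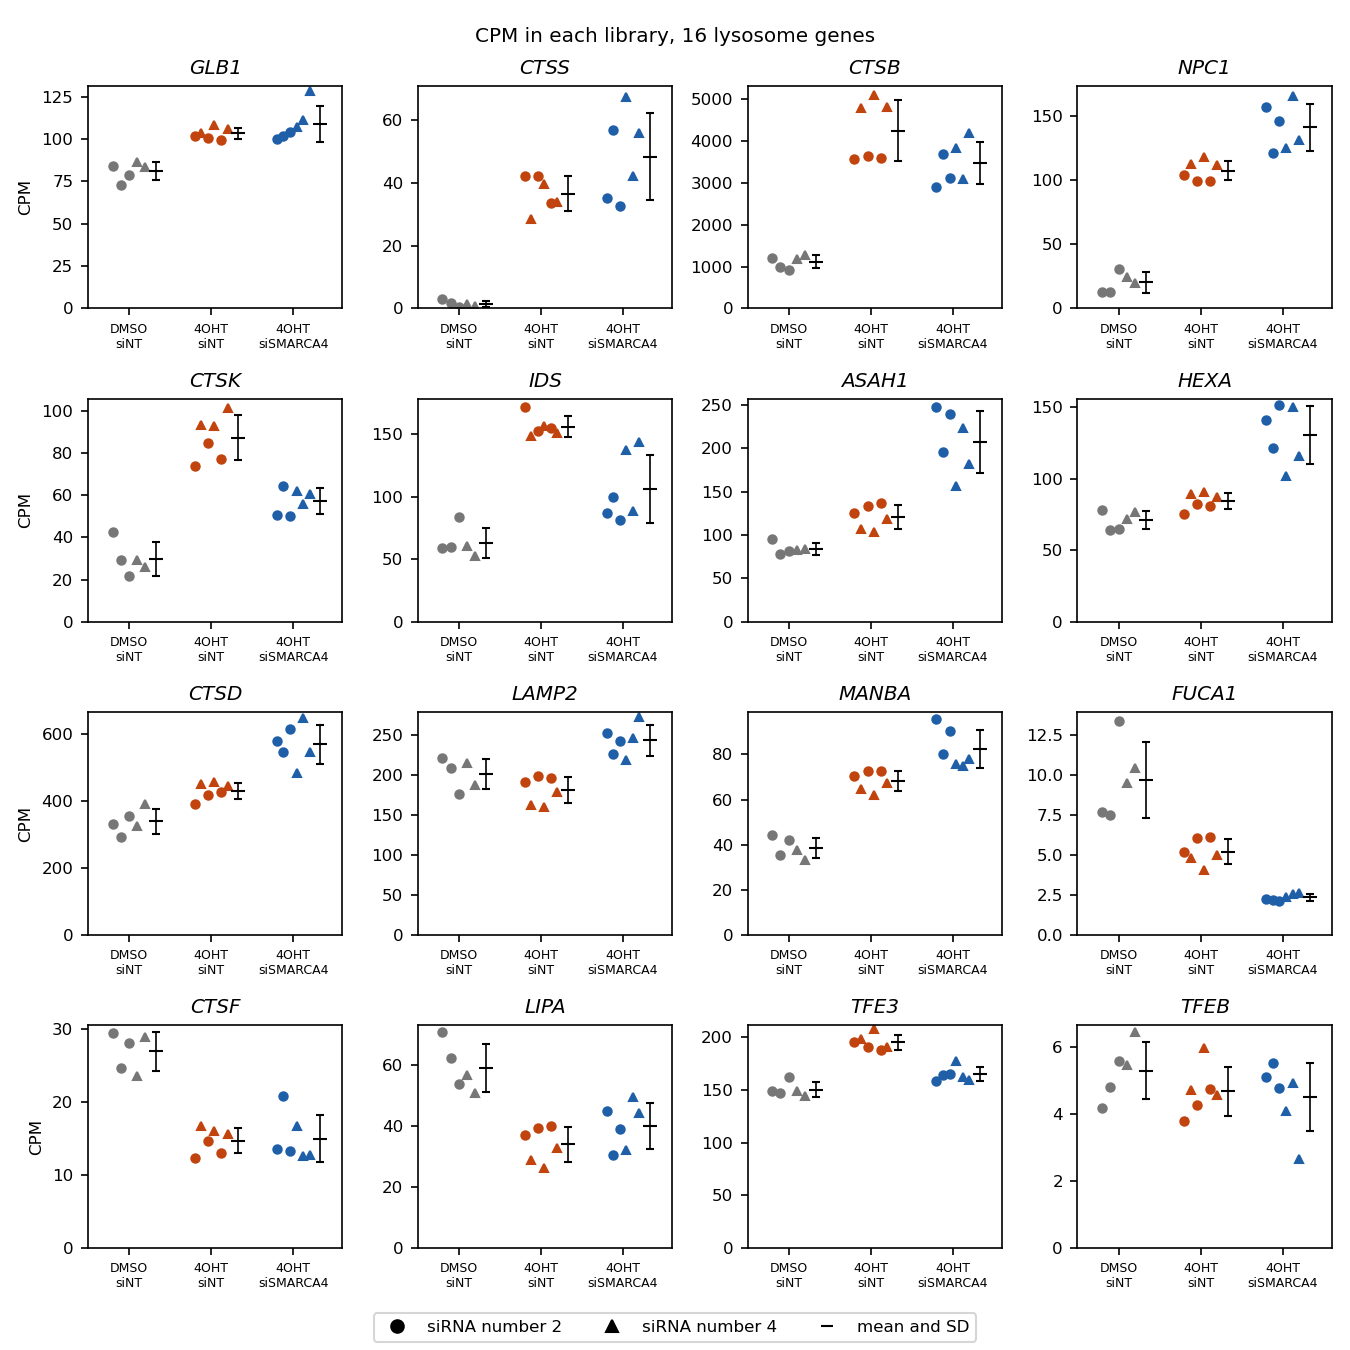
CPM (y axis, from 0) of 16 of the genes in each library by group; circles are libraries of siRNA number 2, triangles those of number 4, and the black mark is the mean with its SD. CTSS, CTSB and NPC1 stand clear of DMSO siNT in both 4OHT groups, FUCA1 steps down to 5.20 and then 2.34 CPM, and TFEB overlaps throughout.

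Summed over the 48 genes, the level rose from 8371 ± 676 CPM in DMSO siNT to 14883 ± 939 in 4OHT siNT and was 15590 ± 648 in 4OHT siSMARCA4 (SD), or 0.887%, 1.46% and 1.58% of gene counts. These are sums of counts, in which long and abundant transcripts weigh most. CTSB supplied 48.2% of the increase with 4OHT, PSAP 19.4% and SQSTM1 12.6%. Without CTSB and PSAP the sums were 6168 ± 430, 8276 ± 201 and 9490 ± 915 CPM (SD). By role, proteases went from 2148 ± 198 to 5726 ± 799 and 5254 ± 352 CPM (SD), while glycosidases went from 610 ± 31.9 to 842 ± 17.3 and 1008 ± 104 CPM (SD). In the protease sum, CTSB alone changed by 3140 CPM with 4OHT and by -777 CPM with the SMARCA4 siRNA, where it was not called. With the siRNA, 2 of the 10 proteases were called higher and 1 lower, so the protease sum does not show their common direction. The sum over membrane proteins ranged from 1709 to 2191, from 1870 to 2038 and from 1729 to 2258 CPM and overlapped between all 3 groups.

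**Figure D3:**
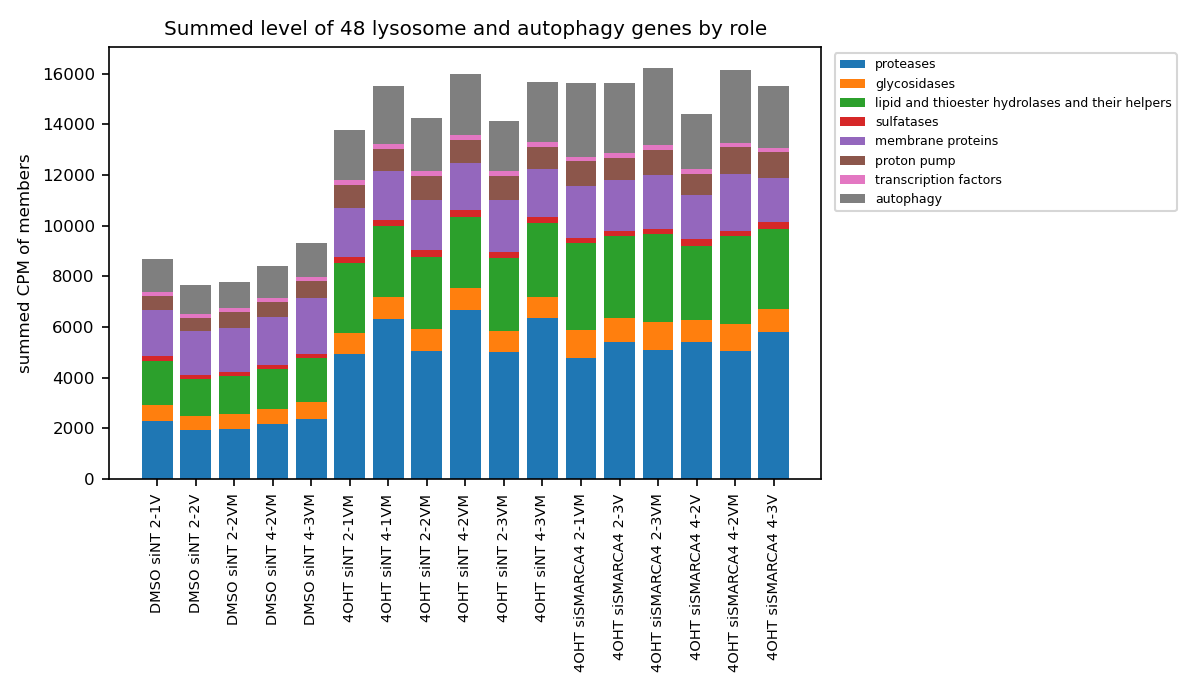
Summed CPM of the 48 genes in each of the 17 libraries (y axis, from 0), stacked by role. All 4OHT libraries, from 13771 CPM upward, exceed all DMSO siNT libraries, which reach 9304 CPM, and proteases show the largest increase of the 8 roles in both 4OHT groups. CTSB alone makes up 3140 CPM of the protease increase in 4OHT siNT.

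The second comparison asked what the SMARCA4 siRNA changed in senescent cells. Among the genes called higher were 6 of the 11 glycosidases, the ceramidase ASAH1, LAMP2, CLN3 and SQSTM1, while FUCA1, CTSK, IDS, TFE3 and ULK1 fell. In 4OHT siSMARCA4 against 4OHT siNT, 18 of the 48 genes were called higher and 5 lower, where 10.4% and 13.8% of all genes tested were. Every knockdown library was above every 4OHT siNT library in 8 of the 48 and below in 5, against 4.54% and 7.49% of all genes. The median log2 fold change was 0.20 over the 48 genes and -0.02 over all genes tested.

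The largest rise was that of ASAH1, which splits ceramide. It was at 103 CPM at the lowest, 122 at the median and 137 at the highest in 4OHT siNT and at 156, 210 and 248 CPM in 4OHT siSMARCA4. The groups did not overlap, and the rise was 0.78 on the log2 scale (SE 0.11, adjusted p = 7.0e-05), or 1.72-fold. HEXA, which with its partner subunit degrades GM2 ganglioside, was at 75.4, 84.7 and 90.6 CPM against 101, 131 and 151 CPM, a rise of 0.63 (SE 0.09, adjusted p = 0.00015). LAMP2, which also serves chaperone-mediated autophagy, was at 161, 185 and 198 CPM against 219, 245 and 273 CPM, a rise of 0.42 (SE 0.08, adjusted p = 0.00085). Its DMSO siNT libraries were at 222, 208, 177, 215 and 188 CPM, and without the lowest of these, 2-2VM, LAMP2 was called lower with 4OHT (-0.23, adjusted p = 0.031). CTSD, the aspartic protease cathepsin D, was at 391, 434 and 454 CPM against 481, 562 and 646 CPM, a rise of 0.40 (SE 0.08, adjusted p = 0.0015). MANBA was at 62.0, 68.8 and 72.8 CPM against 74.7, 79.2 and 95.6 CPM, a rise of 0.27 (SE 0.08, adjusted p = 0.021). DMSO siNT libraries were at 329.8, 292, 354, 325 and 389.7 CPM for CTSD, at 44.2, 35.4, 42.0, 37.5 and 33.2 CPM for MANBA, at 77.7, 64.1, 65.0, 71.4 and 76.7 CPM for HEXA and at 95.4, 77.4, 81.4, 82.7 and 83.4 CPM for ASAH1. CTSD, MANBA and ASAH1 thus rose with 4OHT and again with the SMARCA4 siRNA, while the libraries of HEXA overlapped between DMSO siNT and 4OHT siNT.

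The other calls upward had overlapping libraries. They were PPT1 (0.58), GLA (0.51), CLN3 (0.50), NEU1 (0.43), NPC2 (0.41), SQSTM1 (0.38), ATP6V1A (0.36), GAA (0.29), CTSA (0.28), NAGLU (0.27), ARSA (0.26), SGSH (0.26) and MAP1LC3B (0.26), all as log2 fold changes. By role, 6 of the 11 glycosidases, 3 of the 6 lipid and thioester hydrolases or helpers, 2 of the 3 sulfatases and 2 of the 10 proteases were called higher. TPP1 (0.35, adjusted p = 0.065), PSAP (0.16, 0.094) and NPC1 (0.39, 0.098) had all knockdown libraries above all 4OHT siNT libraries and missed the threshold. DESeq2 called TPP1 (0.36, adjusted p = 0.042) and PSAP (0.16, 0.044) higher and CTSH (-0.45, 0.046) and FUCA2 (-0.17, 0.041) lower, and a fit of the 2 groups alone called TPP1 (0.014) and NPC1 (0.0046). Genes that 4OHT had raised strongly included some that were not called here: CTSS was at 48.4 ± 13.9 CPM and CTSB at 3475 ± 511 CPM with the SMARCA4 siRNA (SD, log2 fold changes 0.40, SE 0.25, and -0.29, SE 0.12). GLB1 was at 100 CPM at the lowest, 106 at the median and 129 at the highest, overlapping the 4OHT siNT libraries, with a log2 fold change of 0.08 (SE 0.07, adjusted p = 0.44). MCOLN1 (0.11), LAMP1 (0.10) and 4 of the 5 proton pump subunits (-0.20 to 0.19) were not called, nor were CTSF (0.03), CTSH (-0.45), CTSL (0.42), CTSZ (-0.25), FUCA2 (-0.17), GUSB (0.11), MAN2B1 (0.02), SMPD1 (-0.03), LIPA (0.23), CD63 (-0.13), GABARAPL1 (0.20) and WIPI1 (-0.08).

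In the other direction, FUCA1 fell by 1.15 (SE 0.14, adjusted p = 3.2e-05), from 4.03, 5.10 and 6.10 CPM to 2.13, 2.28 and 2.63 CPM. It was the 1 gene of the 48 called lower in each comparison, and the 3 groups formed separate ranges. CTSK fell by 0.61 (SE 0.13, adjusted p = 0.0024), from 74.0, 89.0 and 102 CPM to 50.2, 58.4 and 64.4 CPM, and all knockdown libraries stayed above the highest DMSO siNT library at 42.8 CPM. In libraries of siRNA number 2 alone CTSK was not called (-0.48, adjusted p = 0.13). IDS fell by 0.56 (SE 0.14, adjusted p = 0.0075), from 149, 154 and 172 CPM to 81.1, 94.3 and 144 CPM, and in libraries of siRNA number 4 alone it was at -0.27 (adjusted p = 0.33). TFE3 fell by 0.25 (SE 0.05, adjusted p = 0.0025), from 188, 193 and 208 CPM to 159, 163 and 177 CPM, all below the 4OHT siNT range. It was not called with no filter on low counts (-0.21, adjusted p = 0.076) or in libraries of number 4 alone (-0.22, 0.20). ULK1, whose DMSO siNT libraries were at 56.9, 51.3, 68.8, 58.8 and 51.7 CPM, went from 78.1, 83.6 and 88.0 CPM to 61.8, 71.9 and 75.4 CPM and fell by 0.24 (SE 0.07, adjusted p = 0.023). TFEB was at 2.65, 4.83 and 5.52 CPM with the SMARCA4 siRNA and overlapped the 4OHT siNT libraries (-0.05, SE 0.16, adjusted p = 0.85).

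Side by side, 11 genes were called higher in each comparison (ASAH1, ATP6V1A, CTSA, CTSD, GLA, HEXA, MANBA, MAP1LC3B, NEU1, PPT1 and SQSTM1), 4 were higher with 4OHT and lower with the SMARCA4 siRNA (CTSK, IDS, TFE3 and ULK1), and 2 were lower with 4OHT and higher with the siRNA (CLN3 and SGSH). A further 5 were called higher with the siRNA alone (ARSA, GAA, LAMP2, NAGLU and NPC2), 15 higher and 4 lower with 4OHT alone, and 6 in neither comparison (CD63, CTSZ, FUCA2, GUSB, LAMP1 and TFEB). Over all genes tested, 2.80% were higher in each, 5.68% higher and then lower, 4.15% lower and then higher, 3.84% lower in each, 3.40% higher and 4.26% lower with the siRNA alone, 18.5% higher and 19.5% lower with 4OHT alone, and 37.9% in neither. The comparisons share the 4OHT siNT libraries, so these classes are counts and no test of a relation between the comparisons.

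The tag moved with the knockdown group's levels. Within 4OHT siSMARCA4, all 3 VM libraries lay above all 3 V libraries in 16 of the 48 genes and below in 4, against 10.6% and 11.7% of all genes tested. ASAH1 was at 224 to 248 CPM in VM and at 156 to 196 CPM in V, NEU1 at 278 to 293 and at 156 to 203 CPM, and CTSD at 579 to 646 and at 481 to 545 CPM. IDS was at 81.1 to 88.6 CPM in VM and at 99.9 to 144 CPM in V, CTSB at 2909 to 3120 and at 3694 to 4198 CPM, and CTSS at 32.7 to 42.2 and at 55.9 to 67.6 CPM. SMARCA4 was at 68.4 to 78.3 CPM in VM and at 82.7 to 127 CPM in V, whereas FUCA1 overlapped (2.13 to 2.54 and 2.16 to 2.63 CPM). With VM libraries alone, 22 of the 48 genes were called higher and 7 lower with the SMARCA4 siRNA, against 11.6% and 15.3% of all genes in that fit. The calls gained there were CTSB (-0.47, adjusted p = 0.029), CTSH (-0.57, 0.045) and ATP6V0A1 (-0.25, 0.0084) downward, and CTSL (0.82, 0.00012), LIPA (0.40, 0.039), PSAP (0.22, 0.046), LAMP1 (0.25, 0.010), NPC1 (0.56, 0.0017) and MCOLN1 (0.29, 0.0027) upward, while GAA, SGSH and ULK1 were no longer called. With V or VM as a covariate, the calls gained were CTSB (-0.40, adjusted p = 0.036), CTSH (-0.58, 0.028), CTSL (0.65, 0.0050), NPC1 (0.69, 0.00086), MCOLN1 (0.24, 0.016), ATP6V0D1 (0.28, 0.037) and ATP6V1H (0.31, 0.037). The calls of GAA (0.18, adjusted p = 0.22), SGSH (0.26, 0.051) and ULK1 (-0.18, 0.096) were lost with that covariate. V libraries alone give no value, as no 4OHT siNT library is V.

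The siRNA numbers gave different counts of calls. Number and tag were unevenly crossed, as the knockdown libraries of number 2 were 1 V and 2 VM and those of number 4 were 2 V and 1 VM, and the test below has no term for the tag, so the part of the tag in it was not tested. With libraries of number 2 alone, 23 genes were called higher and 5 lower with the SMARCA4 siRNA, and with those of number 4 alone, 3 and 2. Over all genes the shares moved too, from 10.7% higher and 12.1% lower with number 2 to 3.64% and 2.38% with number 4. A single edgeR fit of the 12 4OHT libraries gave other calls for each number. There number 4 added CTSS, TPP1, HEXA, ATP6V1A and MAP1LC3B upward and CTSB and TFE3 downward (adjusted p 0.017 to 0.044). Number 2 added NPC1 upward and CTSK downward there, and had no call for CTSL, GUSB, MAN2B1, NEU1, NPC2, ATP6V1A, MAP1LC3B and FUCA2. The share of all genes called for each number in that single fit is not given here. Its calls are therefore not read as a result about the 48 genes. The difference between the numbers, tested as an interaction in the 12 4OHT libraries, was called for 0 of the 48 genes by edgeR (10, or 20.8%, had an unadjusted p under 0.05, against 15.8% of all genes), for 2 by DESeq2, and for 1.07% of all genes by edgeR. Each effect is taken against the siNT libraries of the same number, so a difference between those enters it too. The summed level of the autophagy genes was 1982 to 2075 CPM in 4OHT siNT of number 2 and 2273 to 2395 CPM in that of number 4. DESeq2 called SQSTM1 (log2 difference 0.60 between the effects of number 2 and number 4, adjusted p = 0.0082) and GABARAPL1 (0.69, adjusted p = 0.0027). In edgeR the effect on SQSTM1 was 0.69 (SE 0.11) with number 2 and 0.09 (SE 0.11) with number 4, and that on GABARAPL1 was 0.52 (SE 0.11) and -0.18 (SE 0.11), with adjusted p of 0.095 and 0.061 for the differences. ASAH1 (0.80, SE 0.13, and 0.77, SE 0.13), PPT1 (0.54, SE 0.15, and 0.63, SE 0.15) and CTSK (-0.51, SE 0.10, and -0.69, SE 0.10) had values closer to each other with either number than IDS (-0.83, SE 0.15, and -0.31, SE 0.14), GAA (0.49, SE 0.11, and 0.10, SE 0.11) and CTSA (0.44, SE 0.10, and 0.12, SE 0.10), whose differences in edgeR had unadjusted p of 0.025, 0.028 and 0.037. Without 4OHT siSMARCA4 4-2VM, 5 genes passed in edgeR (CTSL, HEXA, IDS, SQSTM1 and GABARAPL1), and without 2-3V or 4-2V, GABARAPL1 did. The share of all genes called in those fits and in DESeq2 is not given here, so these counts are not read as a result about the 48 genes.

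**Figure D4:**
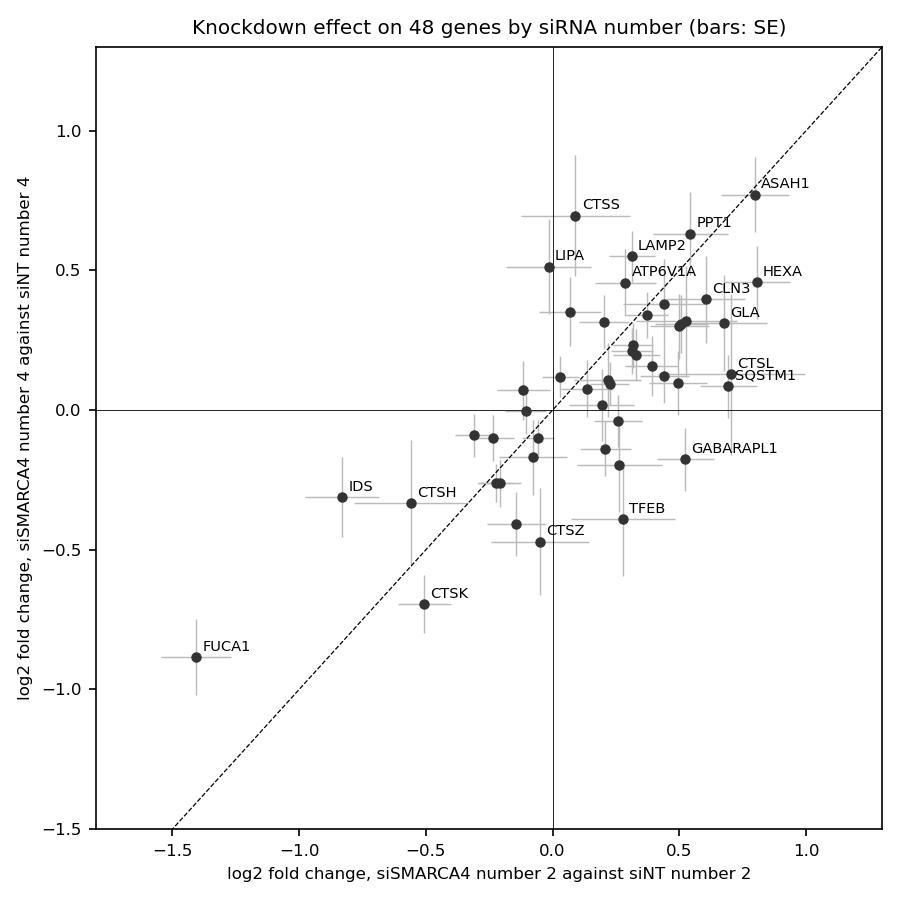
Log2 fold change of each of the 48 genes with the SMARCA4 siRNA in libraries of number 2 (x axis) and number 4 (y axis), with SEs as bars and a dashed line where they are equal. ASAH1 and PPT1 lie near the line, FUCA1 lies at -1.41 and -0.88, and SQSTM1 and GABARAPL1 lie below it.

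Of the 23 calls with the SMARCA4 siRNA, 4 (FUCA1, ASAH1, PPT1 and LAMP2) held under all alternatives tried and 16 held with any 1 library left out. Those lost without at least 1 library were GAA (9 of 12 libraries, adjusted p 0.059 to 0.12), NEU1 (7 of 12, 0.052 to 0.082), SQSTM1 (7 of 12, 0.055 to 0.072), SGSH (5 of 12, 0.063 to 0.087), MANBA (3 of 12, 0.050 to 0.059), MAP1LC3B (2 of 12, 0.052 to 0.053) and ULK1 (2 of 12, 0.050 to 0.057). Without 4OHT siSMARCA4 4-3V, 8 genes in place of 5 were called lower, where the share of all genes called lower was 14.4% in place of 13.8%.

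A wider list of 111 other lysosome and autophagy genes, of which 107 were tested, is given by its counts. With 4OHT, 45 were called higher and 16 lower (median log2 fold change 0.18), and with the SMARCA4 siRNA 31 higher and 6 lower (0.09). Over all genes tested the shares were 27.0% higher and 27.4% lower with 4OHT and 10.4% and 13.8% with the siRNA, and the 4OHT counts of other hydrolases, membrane and sorting proteins and nutrient sensing genes lie near the shares called higher. Other proton pump subunits rose with 4OHT in 10 of 15 and fell in 0, other autophagy genes rose in 20 of 37 and fell in 5, other hydrolases rose in 7 of 22 and fell in 5, membrane and sorting proteins rose in 4 and fell in 4 of 17, and nutrient sensing genes rose in 4 and fell in 2 of 16. With the SMARCA4 siRNA the calls higher and lower were 6 and 1, 9 and 3, 7 and 1, 6 and 1, and 3 and 0 in the same lists. The largest rises with 4OHT without overlap were those of ATP6V0D2, a pump subunit known from osteoclasts (0.05 ± 0.06 to 5.04 ± 0.58 CPM, SD), ACP5, the tartrate-resistant acid phosphatase (0.77 ± 0.28 to 11.9 ± 2.62 CPM, SD), and RRAGD, a GTPase that signals amino acids to mTORC1 (0.18 ± 0.06 to 1.85 ± 0.48 CPM, SD). Their log2 fold changes were 6.57, 3.96 and 3.39. The largest falls were those of EPDR1 (-1.74), the LC3 gene MAP1LC3A (-1.44) and TMEM192 (-1.35). With the SMARCA4 siRNA, EPDR1 (1.54), ATP6V0D2 (1.52) and the acid nuclease DNASE2 (0.80) rose most without overlap, and the sorting receptor SORT1 (-0.84) and the autophagy receptor NBR1 (-0.24) were the 2 that fell without overlap. EPDR1 had 9 to 74 counts in every library, so its folds rest on few reads. ATP6V0D2 had 0 to 9 counts in DMSO siNT and RRAGD was at 0.18 CPM there, so their folds with 4OHT rest on few reads as well.

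Some of the genes share reads with overlapping annotations on the same strand. ENSG00000260729 overlaps HEXA and was at 25.2, 30.3 and 45.7 CPM in DMSO siNT, 4OHT siNT and 4OHT siSMARCA4 (means), ENSG00000250644 overlaps CTSD and was at 175, 231 and 275 CPM, and ENSG00000241489 overlaps IDS and was at 55.8, 133 and 94.3 CPM. Each moved in the direction of its neighbour, and the reads of each pair cannot be told apart from these tables, so the levels of HEXA, CTSD and IDS are uncertain to that extent. TMPPE, which overlaps GLB1, was at 3.27, 4.23 and 3.36 CPM. PNPLA6, which overlaps MCOLN1, was at 151, 203 and 196 CPM. MAP1LC3B2, a close copy of MAP1LC3B, stayed at or below 1.64 CPM, and the pseudogene copies of FUCA1, IDS and SQSTM1 at or below 0.17 CPM.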

How the data were processed

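RNA from IMR90 ER:RAS cells was sequenced as paired-end poly(A) libraries. Per the methods and the labels, the authors trimmed reads with Cutadapt 4.7, aligned them to GRCh38 with HISAT2 2.2.1 keeping multiple alignments, and counted genes and repeat loci with TElocal in its reverse-stranded mode that shares multi-mapped reads. The deposited values are expected counts per gene and repeat locus, not normalized, 1 table per library. Reads shared between near-identical genes are therefore divided by estimation, and repeat loci took 1.35% to 1.93% of counts.

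Counts were taken for 62754 genes, repeat loci were summed by subfamily, and both entered the library totals. With edgeR 4.0.16 (R 4.3.3, limma 3.58.1), rows were filtered by filterByExpr (minimum count 10, minimum total 15), scaled by TMM (factors 0.949 to 1.08) and fitted by the quasi-likelihood method with 1 term per group over all 17 libraries. Benjamini-Hochberg adjustment ran over the 19473 genes tested, and an adjusted p under 0.05 was called. CPM uses the same factors. Libraries held 39109479 to 68978119 counts, and the 48 genes had 33 to 281285 counts per library. Libraries of a group differed by more than sampling noise in every pair (chi-square per degree of freedom at least 5.18), so none was counted as a duplicate. The script was tested on simulated data. Symbols came from GENCODE 44 and promoters from RefSeq (GRCh38.p14), kept where the window starts from GENCODE's MANE Select transcript.

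The 48 genes, the wider lists and the tests were chosen with earlier results of these data known. Every one of the 48 is named. Values by library are given for GLB1, TFEB, TFE3 and, in each comparison, the 5 largest rises and 5 largest falls among called genes whose libraries do not overlap, and for the wider list the 3 largest of each. Alternatives were RLE factors, DESeq2 1.42.0, no filter, gene counts alone in the totals, only the 2 groups compared, the tag as a replicate block or as a V or VM covariate, VM libraries alone, either siRNA number alone, and leaving out each library. siRNA number as a covariate was added after seeing the data.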

Additional observations from a re-analysis of the deposited data

Results flagged for a closer look

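In 144 groups examined (48 genes in 3 groups), 12 had a library standing apart from the others of its group by Dixon's 95% criterion, in 10 genes, and chance flags about 1 in 20 groups. In DMSO siNT, library 4-3VM was high for CTSL (143 CPM, the others 106 to 116) and CD63 (1474, the others 963 to 1097), library 2-1V was high for GAA (66.7, the others 48.5 to 53.7) and PPT1 (48.8, the others 41.9 to 43.9), and library 2-2VM was high for IDS (83.7, the others 52.3 to 60.4) and TFE3 (162, the others 144 to 149). In 4OHT siNT, library 2-1VM was low for NAGLU (36.1, the others 41.2 to 43.4) and ATP6V0D1 (239, the others 263 to 272) and high for IDS (172, the others 149 to 157). In 4OHT siSMARCA4, library 4-3V was low for CTSZ (49.6, the others 95.4 to 112), and library 4-2V was high for MAN2B1 (120.0, the others 95.6 to 104) and TFE3 (177, the others 159 to 166).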

How the results depend on the processing

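No called gene of the 48 changed sign under any alternative in either comparison. With the SMARCA4 siRNA, the 18 genes called higher became 3 in libraries of siRNA number 4 alone (3 against 3) and 14 to 18 with 1 of the 12 4OHT libraries left out, where the share of all genes called higher went from 10.4% to 3.64% and to between 7.87% and 11.4%. The 5 called lower became 3 with no filter on low counts, where the share of all genes called lower went from 13.8% to 4.33%. These 2 shares are over unlike totals, 19473 genes with the filter and 43519 without it, so they cannot be set side by side. The 5 called lower became 2 in libraries of number 4 alone (2.38% of all genes) and 8 with siRNA number as a covariate (14.3%). With 1 library left out they were 4 to 8 (4 without 4OHT siSMARCA4 2-3V, with 11.7% of all genes, and 8 without 4-3V, with 14.4%). With 4OHT, 30 genes called higher became 18 in libraries of number 4 alone, where all genes went from 27.0% to 20.1%. The interaction of siRNA number, called for 0 genes, gave 2 with DESeq2 and 6 with no filter, and 0 to 5 with 1 library left out. The share of all genes called in these alternative interaction fits is not given here, so these counts are not read as a result about the 48 genes. The cause of these shifts was not tested.

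With the SMARCA4 siRNA, MANBA lost its call without 4OHT siNT 4-2VM, 4OHT siSMARCA4 2-1VM or 2-3VM (log2 fold change 0.23 to 0.25), MAP1LC3B without 4OHT siNT 4-1VM or 4-2VM (0.22 to 0.23), ULK1 without 4OHT siNT 4-2VM or 4OHT siSMARCA4 2-3V (-0.22 and -0.20), SGSH without 4OHT siNT 2-1VM, 2-2VM or 2-3VM or 4OHT siSMARCA4 4-2VM or 4-3V (0.21 to 0.24), NEU1 without any VM knockdown library or 4OHT siNT 2-1VM, 4-1VM, 4-2VM or 4-3VM (0.35 to 0.43), SQSTM1 without any 4OHT siNT library of number 2, any knockdown library of number 2 or 4OHT siSMARCA4 4-2VM (0.34 to 0.37), and GAA without any library but 4OHT siNT 4-2VM and 4OHT siSMARCA4 4-2VM and 4-3V (0.24 to 0.31). With 4OHT, CLN3 lost it without DMSO siNT 4-3VM or 4OHT siNT 2-1VM, 4-2VM or 4-3VM (-0.28 to -0.26), SGSH without DMSO siNT 2-1V, 4-2VM or 4-3VM or any 4OHT siNT library of number 2 (-0.23 to -0.20), GABARAPL1 without DMSO siNT 2-1V (-0.37), and HEXA without any library but DMSO siNT 4-3VM and 4OHT siNT 2-1VM (0.19 to 0.25).

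Libraries with the same siRNA number and tag had correlated deviations over 0.1 in 2 of 7 pairs (-0.45 to 0.30), those with the same tag in 8 of 16 (-0.45 to 0.53) and those with the same number in 13 of 48 (-0.53 to 0.46), so pairing was not taken as shown. With the tag as a replicate block, 19 genes were called higher and 5 lower with the SMARCA4 siRNA, against 9.66% and 13.2% of all genes. With 4OHT, 28 were called higher and 5 lower, against 24.4% and 24.0% of all genes. The log2 fold change of SMARCA4 under the block was -1.78. The block ended the knockdown calls of GAA (0.22), SGSH (0.26) and ULK1 (-0.16), added CTSL (0.72), NPC1 (0.61), MCOLN1 (0.23) and CTSH (-0.59), and ended the 4OHT calls of HEXA (0.20), ATP6V1H (0.31), SGSH (-0.21) and GABARAPL1 (-0.38). Sign changes were limited to genes that were not called. With the SMARCA4 siRNA, under the block these were CTSF -0.10, CTSS -0.029, SMPD1 0.037 and TFEB 0.076. With V or VM as a covariate they were CTSF -0.083, CTSS -0.12, MAN2B1 -0.016, SMPD1 0.060, ATP6AP1 0.026 and TFEB 0.0998, and in VM libraries alone CTSF -0.15, MAN2B1 -0.0055, SMPD1 0.053 and TFEB 0.090. In libraries of number 4 alone they were CTSF -0.16, MAN2B1 -0.098, SMPD1 0.11, ATP6AP1 0.039 and GABARAPL1 -0.13, in those of number 2 alone TFEB 0.31, and with no filter SMPD1 0.011. With 4OHT they were CTSZ -0.021 under the block, -0.012 with the tag covariate, -0.067 in VM libraries and -0.064 in number 4, GAA -0.20 and CD63 0.096 in number 2, and NPC2 -0.050 in number 4. With 1 library left out the ranges were, with the SMARCA4 siRNA, CTSF -0.091 to 0.070, MAN2B1 -0.024 to 0.094, SMPD1 -0.059 to 0.017 and TFEB -0.12 to 0.061, and with 4OHT, CTSZ -0.0093 to 0.15, GAA -0.0076 to 0.12, LAMP1 -0.014 to 0.066 and CD63 -0.14 to 0.054.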
